A study of Homo sapiens with 16 samples.

Results

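The last step of a knockdown time course in an Ewing sarcoma cell line, from 72 h to 96 h after doxycycline, was described from 4 of the study's 16 arrays. The arrays were chosen by their labels alone: the 2 arrays labelled 96 h were set against the 2 labelled 72 h. The other 12 arrays took part in it through the estimate of spread, the filter on expression and the choice of probe set. All 16 arrays share these. Values at other times, 0 h and 53 h above all, are given beside it to place the levels. A673 is an established line of Ewing sarcoma, a tumour of bone and soft tissue that is driven by EWS-FLI1, a fusion of the RNA-binding protein EWSR1 with the ETS transcription factor FLI1. Asp14 is a clone of A673 that holds a construct through which doxycycline switches on a knockdown of the fusion. All cells carried that construct and a further vector and were grown under Zeocin and Blasticidin, which select for them. RNA was taken before doxycycline (0 h, 4 arrays) and 18 h (3), 36 h (3), 53 h (2), 72 h (2) and 96 h (2) after doxycycline was added at 1 ug/ml.

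Some limits belong to the groups themselves. Both groups come from 1 clone, and no cells without doxycycline were measured at 72 h or 96 h, so a further day of knockdown, a further day in culture and a further day of doxycycline cannot be told apart. The labels number the arrays of a group without saying that each had a culture of its own. The p-values then reflect only how much these samples varied, and that variation may be technical. In RNA from a whole culture, fewer cells that express a gene and less of its RNA per cell cannot be told apart.

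By way of background, E2F factors bind DNA with a DP partner and switch on the genes of DNA replication, and the RB family of pocket proteins holds them back until cyclin-dependent kinases phosphorylate RB at the end of G1. Genes of mitosis peak later in the cycle. Many carry a short promoter element called CHR, through which the DREAM complex of pocket proteins and LIN proteins silences them in resting cells and MYBL2 and FOXM1 raise them in cycling ones. NF-kB is a family of transcription factors that drives chemokines, adhesion molecules and its own inhibitors after inflammatory signals.

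The 4 arrays were alike in overall signal, with upper quartiles of the log2 values between 8.08 and 8.13. Between the replicates at 72 h the differences over the 7304 genes tested had an SD of 0.234 on the log2 scale, and 30 genes differed by 1 or more. At 96 h the SD was 0.390, with 147 such genes, against 0.285 and 61 for the pair at 53 h, so the 96 h pair was the less alike. The 3' signal of ACTB less its 5' signal, a measure of RNA quality, was 1.70 and 1.61 on the log2 scale at 72 h and 1.83 and 1.56 at 96 h, which overlap. Of markers of other cells, all 11 of blood were below log2 4 on each array, and of 15 epithelial markers only KRT18, a keratin also made by many tumour lines, was above it (9.98 and 10.04 at 72 h, 10.02 and 10.02 at 96 h). Of 13 endothelial markers 3 and 4 were at or above log2 4 on the 72 h arrays and 2 on each 96 h array, with means over the list of 3.75 and 3.64 and then 3.25 and 3.40. EMCN and KDR were among those above, and PECAM1 and CDH5, which define endothelium, were below log2 4 on all 4 arrays. The part of these markers in the results was not tested.

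FLI1, the measure of the knockdown, stayed low. It read 7.11 and 6.88 on the log2 scale on the 72 h arrays and 6.92 and 6.52 on the 96 h arrays, against a mean of 10.08 at 0 h. The groups overlap, and the log2 change of -0.27 ± 0.19 (SE, n = 2 against 2) did not pass the test (limma adjusted p = 0.322). The other 2 probe sets of FLI1 were below log2 4 on these arrays. EWSR1 read 8.58 and 8.44 at 72 h and 8.97 and 8.72 at 96 h, and its change of 0.33 ± 0.12 missed the threshold of 0.05 (adjusted p = 0.0509). It passed without 96 h replicate 2 (adjusted p = 0.0239) and, just, under a filter on the 4 arrays (0.0497), a filter at log2 6 (0.0494) or with dim values raised to log2 4 (0.0487). The probe sets for EWSR1 and FLI1 do not tell the fusion from the normal genes.

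Of 29 known EWS-FLI1-activated genes, 2 rose and 4 fell at 96 h, with a median log2 change of -0.31. By comparison 17.1% of all genes tested rose, 10.1% fell, and their median change was 0.03. VRK1, a kinase of chromatin and the cell cycle, rose from 8.23 and 7.93 to 9.74 and 9.22, and STEAP1, a metalloreductase of the cell surface, from 8.30 and 8.18 to 9.39 and 8.83. For both genes each 96 h array lay above both 72 h arrays, yet below the means of 11.38 and 11.64 at 0 h. NKX2-2, a homeodomain factor, fell from 8.66 and 8.42 to 7.33 and 7.85, and FCGRT, the neonatal Fc receptor, from 8.34 and 8.40 to 7.36 and 7.60. These arrays do not overlap either. Of members named after their values were seen, MYC fell by 0.49, and CCND1, cyclin D1, changed by 0.54 and did not pass (adjusted p = 0.0725). The number that fell was 7 with the replicate number as a block and 7 after a second quantile normalization.

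Of 16 known EWS-FLI1-repressed genes, 1 rose and 1 fell, against 17.1% and 10.1% of all genes tested, with a median of -0.46. IGFBP3, a binding protein of insulin-like growth factors, rose from 10.20 and 10.92 to 12.24 and 12.70, by 1.92 ± 0.24 (adjusted p = 6.92e-05). It had read 2.77 on average at 0 h and 5.33 at 53 h. TCF7L2, a transcription factor of Wnt signalling, fell by 0.47 ± 0.13, and its call was lost without 72 h replicate 1 (adjusted p = 0.0923), 72 h replicate 2 (0.0697) or 96 h replicate 1 (0.111). In those fits 0 members fell, against 3 without 96 h replicate 2 or with array weights, and 4 with the 4 arrays fitted alone.

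Across all genes, 1988 of 7304 passed the test at 96 h against 72 h (27.2%): 1250 were higher (17.1%) and 738 lower (10.1%). At an unadjusted p under 0.05 the counts were 1643 (22.5%) and 1138 (15.6%). Of those that passed, 411 rose (5.63%) and 248 fell (3.4%) by at least 1 on the log2 scale, which is 2-fold. Changes ran from -5.50 to 3.94, with a median standard error of 0.18. The 2 arrays of each group did not overlap for 4812 genes (65.9%), 2648 of them higher (36.3%) and 2164 lower (29.6%), and with 2 arrays against 2 an exact permutation test on a single gene cannot give a p below 0.333. Higher genes made up 62.9% of calls, and 51.8% once each array was centred on its median, which gave 1042 higher and 971 lower.

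Left-out arrays changed the counts. Without 72 h replicate 1, 848 genes rose and 386 fell. Without 72 h replicate 2 the counts were 851 and 425, and without 96 h replicate 1 they were 875 and 398. Without 96 h replicate 2 they were 1140 and 717. In all 4 of these fits 655 genes were called higher and 241 lower. Replicate 1 at 96 h lay further from the 72 h mean than replicate 2 for 842 of the 1250 higher genes (67.4%) and for 508 of the 738 lower ones (68.8%). The median change of the higher genes was 0.814 in replicate 1 and 0.697 in replicate 2, so both replicates moved but not by the same amount.

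Most of the genes that moved in the last step had moved the other way by 53 h. The comparison of 53 h with 0 h shares no array with that of 96 h with 72 h, and in it 34.5% of the genes tested fell and 31.8% rose. Of the 1250 genes higher at 96 h than at 72 h, 1024 (81.9%) were among the 2523 that had fallen by 53 h, of which they are 40.6%. Another 68 (5.44%) were among the 2322 that had risen. Of the 738 lower genes, 552 (74.8%) were among those 2322, of which they are 23.8%, and 36 (4.88%) among those that had fallen. Over the 7304 genes the 2 sets of log2 changes had a Pearson correlation of -0.617 and a Spearman correlation of -0.619. These are descriptions across genes, which are not independent replicates.

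**Figure D1:**
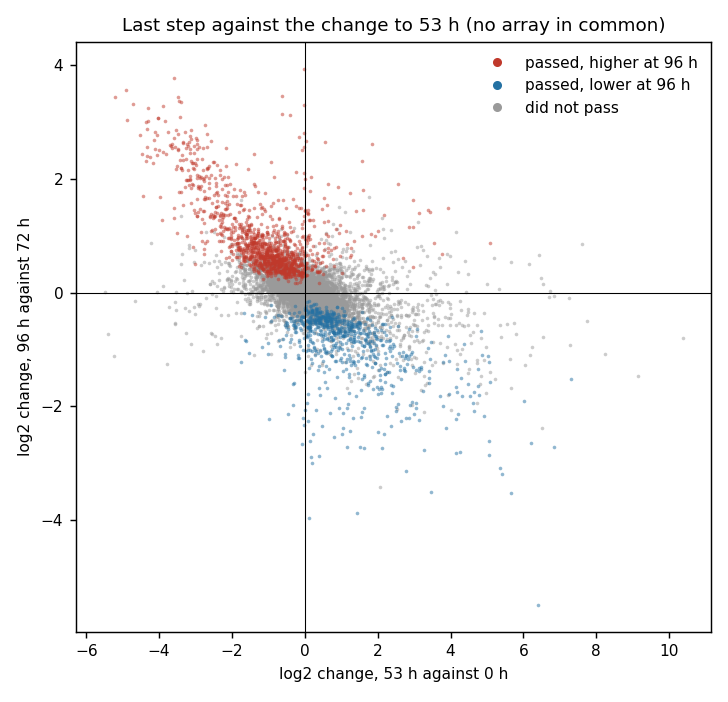
Each point is 1 of 7304 genes, with its log2 change from 0 h to 53 h on the x axis and from 72 h to 96 h on the y axis. Genes that rose at 96 h (red, 1250) lie mostly at the upper left and genes that fell (blue, 738) mostly at the lower right, and the 2 axes share no array.

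At 96 h the median of the genes that rose was still below 0 h, and that of the genes that fell was close to 0 h. Relative to 0 h the higher genes had a median log2 level of -1.01 at 53 h, -1.15 at 72 h and -0.50 at 96 h. The lower genes were at 0.85, 0.89 and 0.11. Both sets were chosen from the last step, so their levels at 72 h and 96 h are a description. A median over a set does not say how far each gene returned. The inflammatory list described below was still at 1.53 against 0 h in the median at 96 h, with 14 of 19 members higher and 0 lower.

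Many of the genes that changed are in none of the lists described here. The lists are taken in the order of the cell cycle, followed by metabolism, inflammation, stress and matrix. Each count is to be read beside the 17.1% of all genes tested that rose and the 10.1% that fell.

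**Figure D2:**
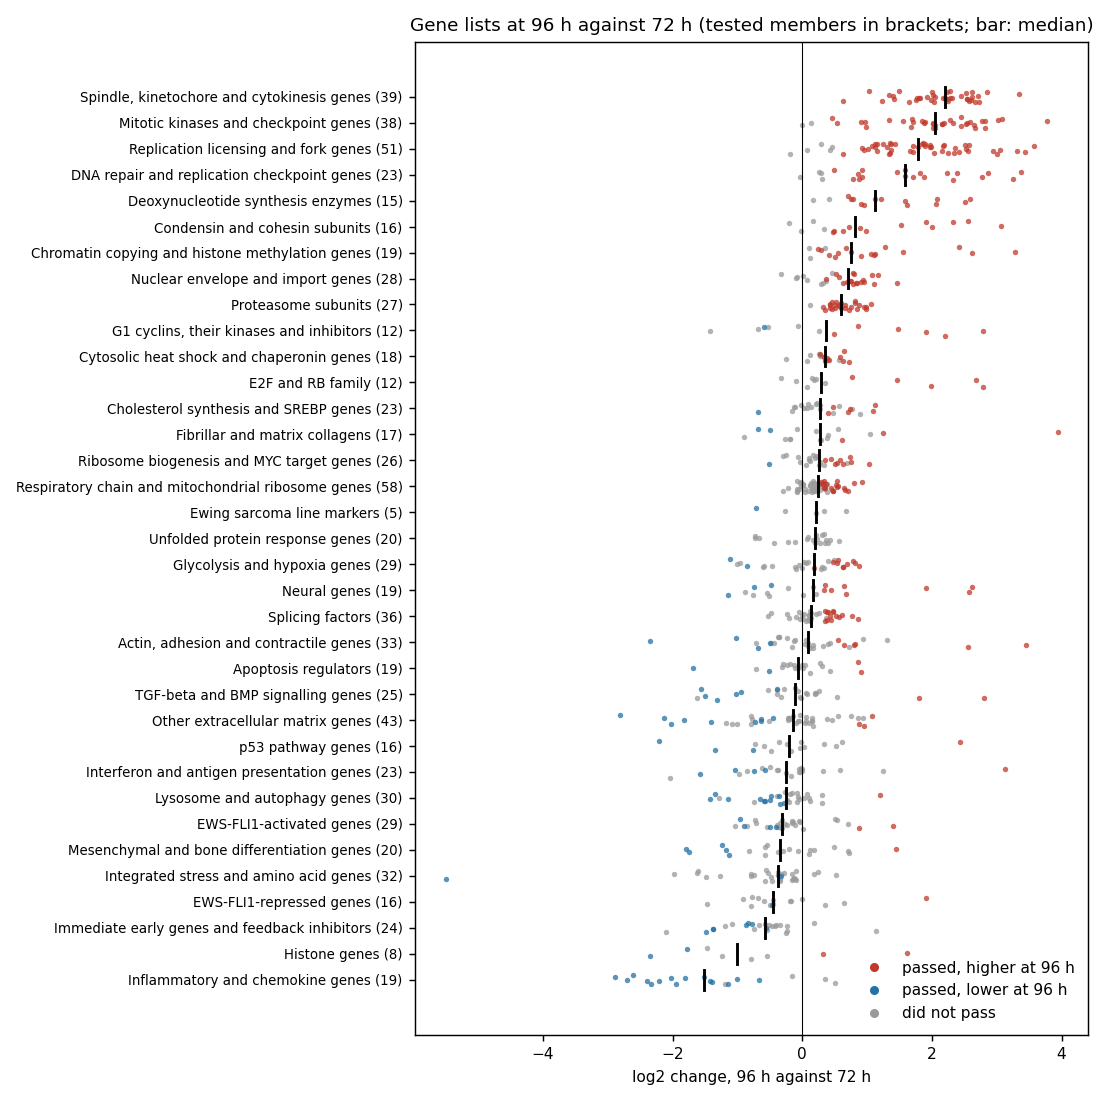
Each point is a tested gene of a list, placed by its log2 change at 96 h against 72 h (x axis). Red points passed the test as higher, blue as lower and grey did not pass, and the black bar is the list's median. Lists of the cell cycle lie at the top, with medians up to 2.20, and the inflammatory list lies at the bottom, with a median of -1.52. Some members of the inflammatory list entered the test only through the 72 h arrays.

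DNA replication genes rose almost as a whole. Of 51 tested members of the list of replication licensing and fork genes 46 rose, 0 fell, and the median change was 1.78. At an unadjusted p under 0.05 in limma 48 were higher and 0 lower. With any 1 of the 4 arrays left out, 45 to 47 rose. The median level of the list was 7.15 and 6.98 on the 72 h arrays and 8.76 and 8.64 on the 96 h arrays, still below the 9.72 to 9.91 of the untreated arrays.

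Promoters of 2 of these genes, GINS2 and CDT1, are shown. They rose by 2.58 and 2.56, and their RefSeq promoters hold a letter string of the E2F element. They may not be the list's largest risers with such a string. GINS4 rose by 3.01, and whether its promoter holds one is not given here. The strings searched were TTTCCCGC and TTTGGCGC, on both strands, in the 250 bases before the start of each gene. Of 43 promoters of the list 11 (25.6%) held one, against 206 of 6129 promoters of the genes tested (3.36%) and 536 of all 27305 promoters (1.96%). Among all genes that rose 56 of 1078 promoters held one (5.19%). Sequences are from RefSeq on GRCh38.p14, written 5' to 3' on the gene's own strand, and capitals mark the match. GINS2 lies at chr16:85688955-85689035 on the minus strand with the match 31 bases before its start, and CDT1 at chr16:88803704-88803788 on the plus strand with the match 35 bases before its start. A match is a string of letters, not a measured binding site.
GINS2: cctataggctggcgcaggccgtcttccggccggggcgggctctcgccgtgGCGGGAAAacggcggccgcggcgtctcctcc
CDT1: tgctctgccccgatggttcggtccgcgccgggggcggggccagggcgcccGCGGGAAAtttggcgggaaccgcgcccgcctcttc

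GINS2, a subunit of the GINS complex of the replicative helicase, read 7.09 and 6.97 at 72 h and 9.60 and 9.62 at 96 h. Its change was 2.58 ± 0.24 (adjusted p = 5.58e-06), with no overlap of the arrays. CDT1, which loads the MCM helicase onto origins, read 3.10 and 3.28 at 72 h and 5.67 and 5.83 at 96 h. Where, as here, no probe set of the gene reached log2 4 on either array of a group, the fold is a lower bound that sets log2 4 in place of the dim values. CDT1 was thus at least 3.37-fold higher at 96 h (adjusted p = 3.77e-05).

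Other replication genes moved as much or more. CDC45, which joins MCM and GINS in the active helicase, read 3.54 and 3.85 at 72 h and 7.44 and 7.09 at 96 h, at least 9.62-fold higher (adjusted p = 2.54e-06). ORC1, the subunit of the origin recognition complex that comes and goes with the cycle, was at 2.84 and 2.69 and then at 6.31 and 6.09, at least 4.59-fold higher. MCM10, an initiation factor, rose from 5.76 and 5.58 to 9.31 and 8.67. All 3 had been lowered to near these levels by 53 h, when their means were 3.59, 2.93 and 5.69. PRIM1, the catalytic subunit of primase, rose from 5.65 and 5.70 to 8.66 and 8.59, and GINS4 from 4.78 and 4.50 to 7.70 and 7.59. MCM5 and TIMELESS, a helicase subunit and a fork protection factor, rose by 2.34 ± 0.17 and 1.97 ± 0.16, the second by 0.99 with all probe sets averaged. Those that did not pass were ORC2, TOPBP1, RFC1, ORC4 and RFC5, with changes from -0.19 to 0.47.

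Enzymes that supply deoxynucleotides rose with them, 13 of 15 with a median of 1.13, and 0 fell, also at an unadjusted p under 0.05 in limma. TYMS, thymidylate synthase, rose from 10.32 and 10.31 to 12.44 and 12.34, or by 1.04 with all probe sets averaged. TK1, the thymidine kinase of S phase, rose from 6.20 and 6.08 to 8.75 and 8.71. RRM2 and RRM1, the subunits of ribonucleotide reductase, rose by 2.51 ± 0.22 and 2.07 ± 0.18, and in each of these genes the arrays do not overlap. GART and IMPDH2, of purine synthesis, did not pass, at 0.41 and 0.17.

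Repair genes used at the fork also rose, 19 of 23 with a median of 1.58 and 0 lower, also at an unadjusted p under 0.05 in limma. BRCA1, of homologous recombination, rose from 4.81 and 4.89 to 7.34 and 6.83. CHEK1, the checkpoint kinase that answers stalled forks, rose from 6.57 and 6.52 to 8.60 and 8.25. BLM, a helicase, and RAD54L were higher by at least 6.53-fold and 5.75-fold (adjusted p = 2.32e-06 and 4.84e-05). TRIP13, an AAA ATPase, rose by 2.38 ± 0.23. Genes that copy chromatin and its marks rose in 16 of 19 cases, with a median of 0.75 and 0 lower, also unadjusted. ASF1B, a histone chaperone, rose from 4.07 and 3.95 to 7.31 and 7.28, and ATAD2 from 7.11 and 7.06 to 9.76 and 9.26. NASP, which carries free histone H3 and H4, and the H3K9 methyltransferase SUV39H1 rose by 1.06 ± 0.13 and 1.28 ± 0.14.

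Histone genes themselves were mixed, with 2 of 8 higher and 2 lower and a median of -1.01. H2AX, a histone variant of DNA damage signalling, rose from 8.80 and 8.85 to 10.47 and 10.41. MACROH2A1 rose by 0.32 ± 0.08, a call lost without 72 h replicate 1 (adjusted p = 0.0873) or 96 h replicate 2 (0.0661), with all probe sets averaged (0.521) with the 4 arrays alone (0.0752) or with arrays centred (0.0681), and it read -0.14 without the probe sets marked as shared between transcripts. H2AC6 and H2BC5, replication-dependent histones of clustered and near-identical genes, fell from 8.75 and 8.69 to 6.08 and 6.64 and from 8.24 and 8.40 to 6.40 and 6.69. Both calls were lost with any 1 of the 4 arrays left out (adjusted p from 0.061 to 0.161 and from 0.0807 to 0.162). Near-identical copies may share these probe sets, so the values cannot be given to single genes with certainty. With the 4 arrays fitted alone 5 histone genes fell, and with array weights 4.

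Of the E2F and RB family 5 of 12 tested members rose and 0 fell, also at an unadjusted p under 0.05 in limma, with a median of 0.28. E2F1, the activator that peaks in late G1, read 4.82 and 5.02 at 72 h and 6.41 and 6.35 at 96 h, a change of 1.46 ± 0.17 (adjusted p = 3.73e-05). E2F8, an atypical repressor made in S phase, read 3.52 and 3.22 and then 6.67 and 5.66, at least 4.49-fold higher (adjusted p = 4.15e-05). MYBL2, the MYB factor that joins LIN proteins on mitotic genes, rose from 5.14 and 5.61 to 7.91 and 8.21. In all 3 the arrays of the groups are well apart.

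RBL1, the pocket protein p107, rose from 4.26 and 4.02 to 6.57 and 5.68, a change of 1.98 ± 0.30. TFDP1, the main DNA-binding partner of the E2Fs, rose by 0.77 ± 0.20 (adjusted p = 0.0134), and its call was lost without 72 h replicate 1 (0.0888) or 96 h replicate 2 (0.064). The rest did not pass. RB1 read 10.51 and 10.07 at 72 h and 10.61 and 10.12 at 96 h, a change of 0.08 ± 0.18, and the groups overlap. RBL2, the pocket protein p130 of resting cells, changed by -0.32 ± 0.18 (adjusted p = 0.203). It passed with the replicate number as a block (0.0272), and with its 2 probe sets averaged, at -0.66 (0.0126). E2F3, E2F5, E2F6, TFDP2 and LIN37 changed by 0.15, 0.22, 0.18, 0.35 and -0.10, of which E2F5 turned to -0.17 without 72 h replicate 1 and passed without 72 h replicate 2 (0.0272). LIN37 turned to 0.02 without 72 h replicate 1.

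Cyclins, kinases and inhibitors of G1 were split, with 6 of 12 higher, 1 lower and a median of 0.37. CCNE2, a cyclin E that drives entry into S phase, rose from 4.06 and 4.45 to 7.54 and 6.55. CDK2, its kinase, rose from 7.17 and 7.28 to 8.85 and 8.54, and CDKN3, a phosphatase of cyclin-dependent kinases, from 6.20 and 6.06 to 8.30 and 8.36. CCNG1, cyclin G1 and a target of p53, fell from a mean of 12.04 ± 0.05 (SD, n = 2) to 11.46 ± 0.30. Inhibitors named after their values were seen did not pass: CDKN1B, p27, changed by -0.53 ± 0.19 (adjusted p = 0.0583), and CDKN1C, p57, was at 4.96 and 4.63 and then at 2.85 and 3.89 (adjusted p = 0.061). CDK4 and CDK6 changed by 0.26 and -0.69 and did not pass. Without 72 h replicate 1 the count of higher members was 3, and without 96 h replicate 2 that of lower ones was 3. With all probe sets averaged CDK2 rose by 0.98.

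Genes of mitosis rose by the most as groups. All 39 tested genes of the list of spindle, kinetochore and cytokinesis genes rose, with a median of 2.20 and a lowest change of 0.63, and 36 of 38 mitotic kinases and checkpoint genes rose, with a median of 2.05. None fell, also at an unadjusted p under 0.05 in limma. With any 1 of the 4 arrays left out the counts were 38 to 39 and 34 to 35. In the step from 53 h to 72 h, which shares the 72 h arrays, 16 genes of each list fell and 0 rose, while of all genes 11% fell and 5.61% rose. The level at 96 h passed that at 53 h too. Against 53 h, 38 and 34 members were higher and 0 lower, while of all genes 19% were higher and 19.8% lower, in a comparison that shares the 96 h arrays.

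Promoters of 4 of these genes, 2 of each list with a match, are shown for the CHR element. Larger risers of these lists with a match may have been left out. The element was searched as TTTGAA on both strands in the same 250 bases. It was found in 17 of 36 promoters of the spindle list (47.2%) and 12 of 27 of the kinase list (44.4%). Among all genes that rose 128 of 1078 held it (11.9%), among the genes tested 529 of 6129 (8.63%), and among all promoters 3704 (13.6%). None of the 43 replication promoters did, while the E2F strings were in 3 of the 36 (8.33%) and 1 of the 27 (3.7%). ESPL1 lies at chr12:53268218-53268298 (plus strand), CDCA8 at chr1:37692443-37692515 (plus), SPC25 at chr2:168890622-168890680 (minus) and MKI67 at chr10:128126424-128126502 (minus). The matches begin 31, 23 and 247 bases before the start of ESPL1, CDCA8 and SPC25, and 47 and 29 bases before that of MKI67, which holds a pair.
ESPL1: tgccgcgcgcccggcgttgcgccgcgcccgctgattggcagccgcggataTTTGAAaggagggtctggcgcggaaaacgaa
CDCA8: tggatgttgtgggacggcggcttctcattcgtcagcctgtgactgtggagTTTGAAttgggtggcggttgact
SPC25: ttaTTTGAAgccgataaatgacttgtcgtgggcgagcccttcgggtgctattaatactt
MKI67: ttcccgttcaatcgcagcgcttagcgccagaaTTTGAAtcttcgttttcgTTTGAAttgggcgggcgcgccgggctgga

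ESPL1, separase, the protease that cuts cohesin at anaphase, read 5.20 on both 72 h arrays and had a mean of 8.29 ± 0.41 (SD, n = 2) at 96 h. CDCA8, borealin of the chromosomal passenger complex, read 3.30 and 3.64 and then 6.59 and 6.40, at least 5.64-fold higher (adjusted p = 0.000105). SPC25, of the NDC80 kinetochore complex, rose from 6.24 and 6.38 to 9.32 and 9.02. The proliferation marker MKI67 rose from 6.99 and 6.73 to 9.80 and 9.34, a change of 2.71 ± 0.27 (adjusted p = 1e-05). In each of the 4 genes both 96 h arrays lay above both 72 h arrays by more than the replicates differed.

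FOXM1, the transcription factor of mitotic genes, rose by more than any other cell cycle gene tested that was above log2 4 at 72 h. It read 4.02 and 4.01 at 72 h and 7.78 and 7.78 at 96 h, a change of 3.77 ± 0.17 or 13.6-fold (adjusted p = 3.4e-08). The 72 h values lay close to log2 4, and the gene's only probe set is marked as shared with other transcripts, so the fold is uncertain. FOXM1 had means of 9.39 at 0 h and 5.81 at 53 h, so it had kept falling up to 72 h and at 96 h was above its level at 53 h. HJURP, the chaperone of the centromeric histone CENPA, rose from 4.58 and 4.07 to 8.08 and 7.47. CENPE, a kinesin of the kinetochore, rose from 4.48 and 4.14 to 8.10 and 7.22. ZWINT, PBK and TPX2, of the kinetochore, mitotic signalling and spindle assembly, rose by 2.59 ± 0.15, 2.53 ± 0.18 and 2.02 ± 0.15. CENPU, CENPM and KIF2C, of the inner kinetochore and its microtubule depolymerase, rose by 2.27 ± 0.13, 2.44 ± 0.17 and 2.73 ± 0.21. Of the 15 genes with the highest changes 9 belonged to 5 of these cell cycle lists. WEE1, which holds mitosis back, and CDC27, of the anaphase-promoting complex, were the 2 members of the kinase list that did not pass, at 0.00 and 0.14.

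Of 16 condensin and cohesin subunits 12 rose and 0 fell, also at an unadjusted p under 0.05 in limma, with a median of 0.81. NCAPH, a condensin I subunit, rose from 4.00 and 3.82 to 7.14 and 6.83, NCAPG2 by 2.01 ± 0.16, SMC2 by 2.33 ± 0.23 and NCAPD2 by 1.91 ± 0.20. Of cohesin and its regulators SMC1A and SMC3, chosen after their values were seen, rose by 0.90 and 0.48. RAD21, STAG2, PDS5A and PDS5B did not pass, at -0.02, -0.20, 0.17 and 0.33. The median over the list was 0.38 with each gene's probe sets averaged. Nuclear envelope and import genes rose in 19 of 28 cases, with a median of 0.71 and 0 lower, also unadjusted. NUP155 and NUP205, scaffold nucleoporins, rose from 6.79 and 6.78 to 8.41 and 8.08 and from 8.38 and 8.48 to 9.71 and 9.50. RANBP1 and the export receptor CSE1L rose by 0.96 ± 0.10 and 0.84 ± 0.09. With all probe sets averaged NUP205 rose by 0.77 and RANBP1 by 0.34.

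**Figure D3:**
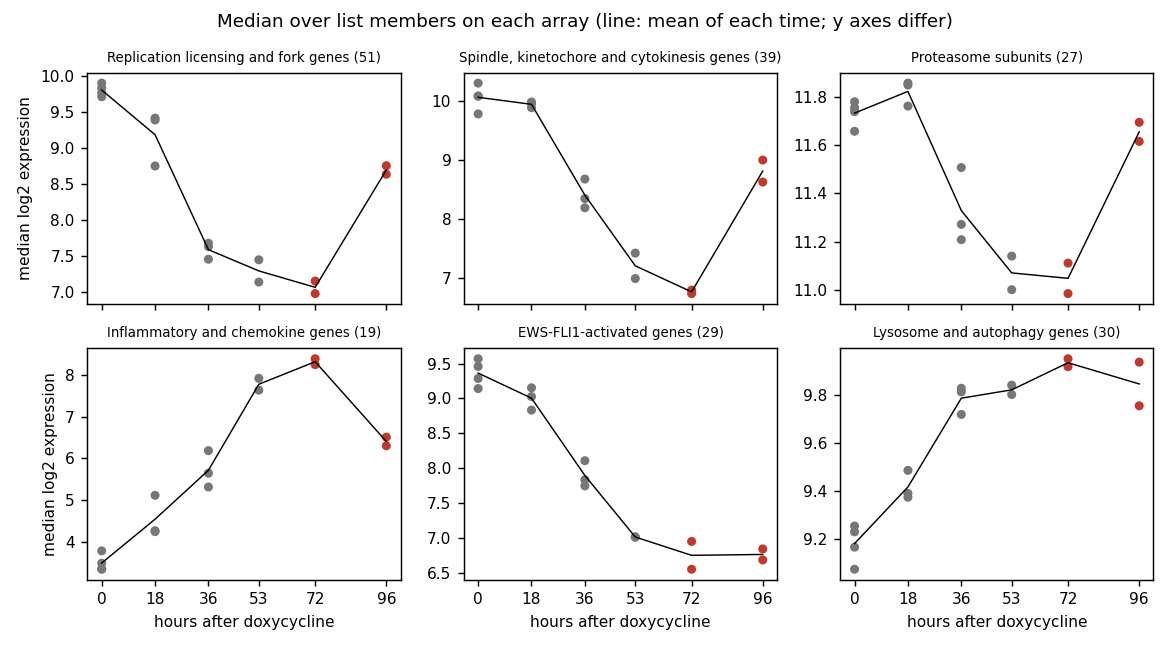
Each point is the median log2 level over the tested members of a list on 1 array (y axis, with a different range in each panel) against hours after doxycycline (x axis), with the 72 h and 96 h arrays in red and a line through the mean of each time. Replication, spindle and proteasome genes are low at 53 h and 72 h and higher on both 96 h arrays, inflammatory genes are highest at 72 h and lower on both 96 h arrays, and the panel of EWS-FLI1-activated genes shows overlapping arrays at the last 2 times.

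Proteasome subunits rose together and by a small amount. Of 27 members 26 rose, with a median of 0.59, a range of 0.12 to 1.06 and 0 lower, also at an unadjusted p under 0.05 in limma. With 1 array left out 23 to 25 rose. PSMD14, the deubiquitinase of the lid, rose from 11.51 and 11.46 to 12.64 and 12.46. PSMC4, an ATPase of the base, rose from 10.59 and 10.52 to 11.29 and 11.27, and PSMB7, a catalytic subunit of the core, from 11.78 and 11.73 to 12.35 and 12.36. PSMD1 rose by 0.98 ± 0.14, and PSMD10 alone did not pass, at 0.12. From 53 h to 72 h 3 members rose and 0 fell, with a median of 0.05. Against 0 h the list was at -0.70 in the median at 72 h and at -0.14 at 96 h.

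Chaperones of the cytosol followed, with 9 of 18 higher, 0 lower (also unadjusted in limma) and a median of 0.35. CCT7, CCT3 and CCT5, subunits of the TRiC chaperonin that folds actin and tubulin, rose by 0.65 ± 0.09, 0.58 ± 0.09 and 0.72 ± 0.14. HSPD1, a chaperonin of mitochondria, rose from 13.42 and 13.37 to 13.90 and 13.72. Of 36 splicing factors 14 rose and 0 fell (15 and 3 at an unadjusted p under 0.05 in limma), with a median of 0.13. SNRPA, SNRPF and SNRPB, proteins of the small nuclear ribonucleoproteins, rose by 0.86 ± 0.10, 0.77 ± 0.11 and 0.61 ± 0.10. SF3B3 rose by 0.52 ± 0.10, though not with all probe sets averaged (adjusted p = 0.0887) or without probe sets marked as shared (0.726). The splicing count fell to 9 without 72 h replicate 1, 8 without 72 h replicate 2, 7 without 96 h replicate 1 and 9 with the 4 arrays alone.

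Respiratory chain and mitochondrial ribosome genes rose in 20 of 58 cases and fell in 0, with a median of 0.25 (30 and 1 at an unadjusted p under 0.05 in limma). CYC1, cytochrome c1, rose from 10.45 and 10.50 to 11.08 and 11.18, and ATP5MC1, of ATP synthase, from 7.70 and 7.64 to 8.60 and 8.60. NDUFA9 and UQCRC1, of complexes I and III, rose by 0.53 ± 0.09 and 0.54 ± 0.10. Without 72 h replicate 2 the count was 13, with the 4 arrays alone 12, and without 96 h replicate 2 there were 16 higher and 3 lower. Ribosome biogenesis and MYC target genes rose in 9 of 26 cases and fell in 1, with a median of 0.25. NCL, nucleolin, rose from 11.60 and 11.59 to 12.27 and 12.08, IPO4 by 1.02 ± 0.17, FBL by 0.35 ± 0.06 and NHP2 by 0.53 ± 0.10. The count of higher members was 4 without either 72 h replicate and 5 without 96 h replicate 1, when 2 fell.

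Of 29 glycolysis and hypoxia genes 10 rose and 2 fell, with a median of 0.18. All 10 that rose encode enzymes between glucose 6-phosphate and lactate. PGAM1 rose from 12.70 and 12.72 to 13.24 and 13.26, LDHA from 12.86 and 12.71 to 13.59 and 13.62, and ENO1 from 13.25 and 13.28 to 13.90 and 13.88. PFKP rose by 0.87 ± 0.12. The 2 that fell were named after their values were seen: SLC2A3, a glucose transporter, by 1.12 on the log2 scale and BNIP3L, a mitophagy receptor, by 0.86. VEGFA, a target of hypoxia, changed by -0.05 and did not pass. With the 4 arrays alone 4 members fell, and 1 fell without 72 h replicate 2 or 96 h replicate 1.

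Cholesterol and fatty acid genes rose in 6 of 23 cases and fell in 1, with a median of 0.28, where 17.1% of all genes tested rose and 10.1% fell. EBP, a sterol isomerase, rose from 8.10 and 7.91 to 9.22 and 8.99 and PMVK, a kinase of the mevalonate path, from 5.35 and 6.08 to 6.75 and 6.93. ACLY and FASN, which make cytosolic acetyl-CoA and palmitate, rose by 0.48 ± 0.12 and 0.71 ± 0.20. Their calls were lost without 72 h replicate 2 (adjusted p = 0.0721 and 0.114) or 96 h replicate 1 (0.0749 and 0.166), and without either array 2 members rose. The 1 lower call was lost with any 1 array left out, and FASN rose by 0.35 with all probe sets averaged. HMGCS1 and SQLE, of sterol synthesis and chosen after their values were seen, changed by -0.16 and 0.02 and did not pass.

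Inflammatory genes went the other way. Of 19 tested members of the list of inflammatory and chemokine genes 15 fell and 0 rose (16 and 0 at an unadjusted p under 0.05 in limma). The median was -1.52, or -1.19 with dim values raised to log2 4. These 19 are the members that passed the filter, of 29 on the array. CXCL1, CXCL2, ICAM1 and RELB are among the 15 and passed the filter only through the 72 h arrays, where they were high. For them a fall from 72 h was fixed by the filter, so the count and the median are a description. The median level of the list was 8.39 and 8.24 on the 72 h arrays and 6.51 and 6.30 on the 96 h arrays. With 1 array left out 10 to 13 members fell. From 53 h to 72 h 10 members rose and 1 fell, with a median of 1.11. Set directly against 53 h, the 96 h arrays had 2 members higher and 5 lower, with a median of -0.21. These 3 comparisons share arrays in pairs. All 11 blood cell markers were below log2 4 on each array.

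Promoters of 2 chemokine genes are shown. Members of the list that fell were taken in order of the size of the fall, and 2 with a string of the NF-kB element were kept. Members with a larger fall and a match may have been left out. Both genes shown were above log2 4 on the 72 h arrays alone. This search was added after the values were seen. It used the NF-kB consensus on both strands of the same 250 bases. The consensus was found in 6 of 15 promoters of the list (40.0%), in 50 of 611 promoters of all genes that fell (8.18%), in 362 of the 6129 promoters of the genes tested (5.91%) and in 1380 of all 27305 (5.05%). CXCL2 lies at chr4:74099213-74099322 on the minus strand and CXCL1 at chr4:73869265-73869374 on the plus strand. Each holds 2 overlapping matches, which begin 78 and 77 bases before the start of CXCL2 and 79 and 78 bases before that of CXCL1.
CXCL2: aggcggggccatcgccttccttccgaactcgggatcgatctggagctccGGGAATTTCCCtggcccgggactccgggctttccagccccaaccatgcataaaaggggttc
CXCL1: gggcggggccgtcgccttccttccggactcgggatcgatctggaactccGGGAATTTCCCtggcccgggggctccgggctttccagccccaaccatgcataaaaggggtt

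CXCL1 and CXCL2 encode chemokines that draw neutrophils. CXCL1 read 4.79 and 4.64 at 72 h and 2.52 and 2.47 at 96 h, at least 1.64-fold lower. CXCL2 read 4.44 and 5.42 and then 2.64 and 2.57, at least 1.91-fold lower. ICAM1, the adhesion molecule that binds leukocytes, read 5.99 and 6.16 and then 3.47 and 2.88, at least 4.21-fold lower. RELB, a subunit of NF-kB, was at 4.49 and 4.91 and then at 2.09 and 2.10, at least 1.63-fold lower. Means at 53 h were 2.50 for CXCL1, 2.62 for CXCL2, 2.37 for ICAM1 and 2.23 for RELB, so each of the 4 was dim on both sides of 72 h. All 4 reached log2 4 on the 72 h arrays alone. They entered the test only through that group, so their calls are a description. Their levels are low, and the size of a change to so dim a level is uncertain.

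Brighter members were named after their values were seen. IL1B, interleukin 1 beta, fell from 7.10 and 7.52 to 5.17 and 4.67. VCAM1, an adhesion molecule, fell from 9.51 and 9.60 to 7.71 and 7.79. PTGS2, cyclooxygenase 2, fell from 11.23 and 11.49 to 9.55 and 10.14, and at 0 h it had read 4.15. NFKB1 and NFKBIA, a subunit of NF-kB and its inhibitor, fell by 1.42 and 1.01. CXCL8, CCL2, CXCL12 and TNFAIP6 did not pass. CXCL8 read 11.29 and 11.50 at 72 h and 11.59 and 10.88 at 96 h, which overlap, and CCL2 changed by -1.19 ± 0.47 (adjusted p = 0.0745).

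**Figure D4:**
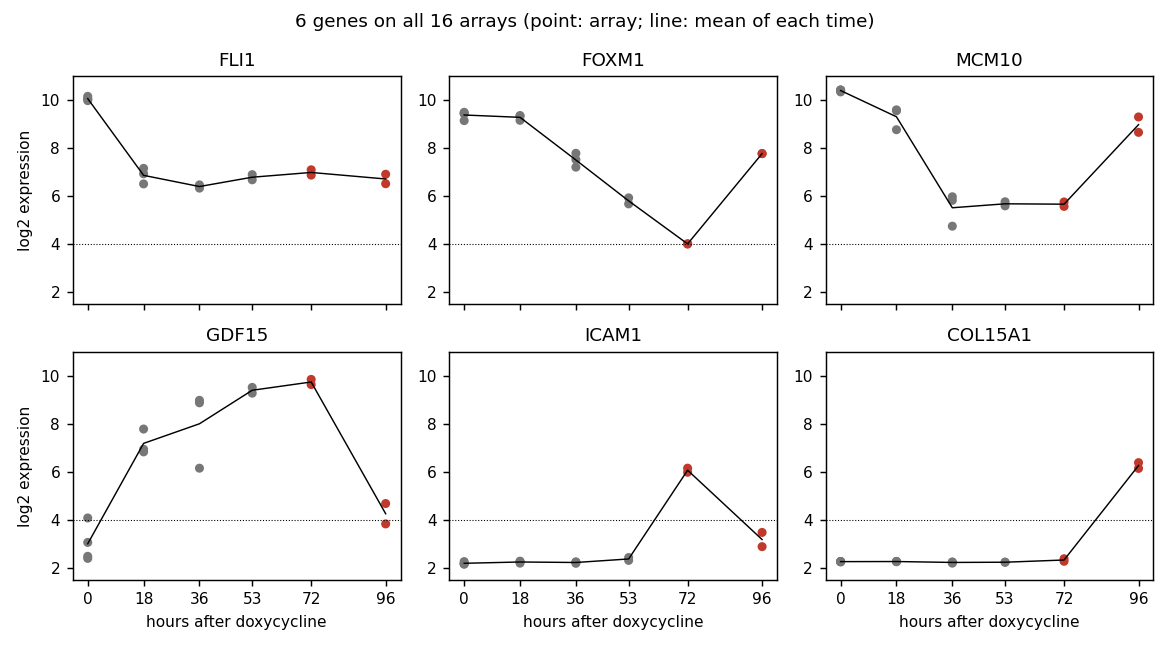
Each panel shows 1 gene on all 16 arrays, with log2 expression (y axis) against hours after doxycycline (x axis), arrays at 72 h and 96 h in red, a line through the mean of each time and a dotted line at log2 4. FLI1 is low from 18 h on, FOXM1 and MCM10 turn up at 96 h, GDF15 drops at 96 h, ICAM1 is above log2 4 on the 2 arrays at 72 h alone and COL15A1 on the 2 arrays at 96 h alone.

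GDF15, a secreted cytokine of cell stress, read 9.65 and 9.86 at 72 h and 3.83 and 4.68 at 96 h, a change of -5.50 ± 0.78 (adjusted p = 0.000167). Its arrays at 53 h had a mean of 9.41 and those at 0 h a mean of 3.00. That probe set is marked as shared with other transcripts, and the other one was below 2 on these arrays, which gave -2.75 for the mean of both. The list of integrated stress and amino acid genes as a whole had 2 of 32 lower and 0 higher, with a median of -0.37 (6 and 0 at an unadjusted p under 0.05 in limma). SLC38A2, an amino acid transporter, fell by 0.32 ± 0.09, and its call was lost with any 1 array left out (adjusted p from 0.0541 to 0.0934). TRIB3, CHAC1, ASNS and DDIT3, targets of ATF4 named after their values were seen, changed by -1.98, -1.63, -1.61 and -1.48 and did not pass. With any 1 array left out 1 member fell, with array weights 7 and with the 4 arrays fitted alone 9. The fit of all 16 arrays takes its spread from all times. At 36 h the stress list had a median level of 8.32 on replicate 1, against 10.71 and 10.76 on replicates 2 and 3. Of 20 genes of the unfolded protein response 0 rose and 0 fell (1 and 0 unadjusted), with a median of 0.20. That list read 9.59 on replicate 1 at 36 h, against 11.95 and 11.66. The part of the 36 h arrays in the missing calls was not tested.

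Immediate early genes and their feedback inhibitors fell in 7 of 24 cases and rose in 0 (9 and 1 at an unadjusted p under 0.05 in limma), with a median of -0.57. JUND, of the AP-1 family, fell from 11.82 and 11.81 to 10.88 and 11.07. MAFF, a small MAF factor, fell from 10.88 and 10.96 to 9.63 and 9.23, and ATF3, a factor of the stress response, from 7.82 and 7.61 to 5.90 and 6.79. SRF, the serum response factor, fell by 0.57 ± 0.14, a call lost without 72 h replicate 2 (adjusted p = 0.0604). Without that array 3 members fell, and with all probe sets averaged SRF fell by 0.28. FOS could not be placed, with 7.32 and 7.33 at 72 h and 3.73 and 8.55 at 96 h.

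Genes of the p53 pathway moved both ways, with 1 of 16 higher, 3 lower and a median of -0.20. Of all genes tested 17.1% were higher and 10.1% lower. DDB2, which finds ultraviolet damage in DNA, rose from 4.61 and 4.70 to 7.05 and 7.13. XPC, of the same repair path, fell from 9.71 and 9.55 to 8.32 and 8.26, and both were near their means of 7.17 and 8.26 at 0 h. GADD45B fell by 2.21 ± 0.57, a call lost without 72 h replicate 1 (adjusted p = 0.107) or 96 h replicate 1 (0.061). PHLDA3 was at 4.44 and 4.50 and then at 3.66 and 3.76, a call lost without 72 h replicate 1 (0.0636), 72 h replicate 2 (0.0809) or 96 h replicate 1 (0.0851). The count that fell was 1 without 72 h replicate 1 and 1 without 96 h replicate 1. CDKN1A, p21, named after its values were seen, read 8.85 and 9.04 and then 8.34 and 8.65 and did not pass (adjusted p = 0.494).

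Apoptosis regulators had 2 of 19 higher and 2 lower, with a median of -0.07, where 17.1% and 10.1% of all genes tested were, so the lower share is near that of all genes and the higher share is below it. BID, which links death receptors to mitochondria, rose by 0.91 ± 0.21, a call lost without 72 h replicate 1 (adjusted p = 0.0623) or 96 h replicate 1 (0.0772). CASP8 rose by 0.86 ± 0.28, and its call was lost without 72 h replicate 1, 72 h replicate 2 or 96 h replicate 1 (0.101, 0.168 and 0.313). BCL2, which holds apoptosis back, fell from 8.13 and 7.89 to 6.13 and 6.51, a call lost without 96 h replicate 1 (0.056). PMAIP1, NOXA, fell by 0.51 ± 0.12, a call lost without 72 h replicate 1 (0.0694) or 96 h replicate 1 (0.0612). Without 72 h replicate 1 there were 0 higher and 1 lower, without 72 h replicate 2 there were 1 and 2, without 96 h replicate 1 there were 1 and 1, and without 96 h replicate 2 there were 3 and 2.

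Lysosome and autophagy genes fell in 11 of 30 cases and rose in 1, with a median of -0.25. MAP1LC3B, a marker of autophagosomes, fell from 12.16 and 12.25 to 11.54 and 11.72. HEXA, a hexosaminidase, fell by 0.66 ± 0.14, though not with all probe sets averaged (adjusted p = 0.084), and CTSO, a cathepsin, by 1.35 ± 0.32, though not without 72 h replicate 1 (0.058) or 96 h replicate 1 (0.0681). GLA, alpha-galactosidase A, rose from 9.30 and 9.15 to 10.64 and 10.22. The count of lower members depended on single arrays: 5 without 72 h replicate 1, 4 without 72 h replicate 2, 2 without 96 h replicate 1 and 7 without 96 h replicate 2. With the 4 arrays alone 7 fell.

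Interferon and antigen presentation genes had 1 of 23 higher and 4 lower, against 17.1% and 10.1% of all genes tested, with a median of -0.25. IFI44 rose from 4.87 and 4.28 to 8.14 and 7.26, a change of 3.12 ± 0.45, or 2.34 with both probe sets averaged. IFIT3 fell from 6.41 and 6.64 to 4.72 and 5.16. IFITM2 and IFIT1 also fell, and without 96 h replicate 1 or 72 h replicate 2 neither passed (adjusted p = 0.117 and 0.0648 for IFITM2, 0.19 and 0.306 for IFIT1), so that 1 lower member was left in each case. IFIT1 did not pass without 96 h replicate 2 either (0.0588). IFI44 is a classical interferon target, as are IFIT1 and IFIT3, which moved the other way.

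Of 17 collagens 3 rose and 2 fell, with a median of 0.27, which are shares near the 17.1% and 10.1% of all genes tested. COL15A1, a basement membrane collagen, read 2.27 and 2.38 at 72 h and 6.39 and 6.15 at 96 h, at least 4.82-fold higher. It was dim at all earlier times, so it entered the test only through its 96 h arrays, and its call is a description. COL6A2 rose by 0.62 ± 0.14, a call lost without 96 h replicate 1 (adjusted p = 0.0604). COL1A2, of type I collagen, fell by 0.68 ± 0.17, a call lost without 72 h replicate 1 (0.0945) or 96 h replicate 1 (0.0867). COL8A1 was at 3.07 and 2.79 and then at 4.19 and 4.18, at least 1.13-fold higher, a call lost with dim values raised to log2 4 (adjusted p = 0.0663). COL8A1 too entered the test only through its 96 h arrays. With any 1 array left out 1 collagen fell.

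Of 43 other matrix genes 9 fell and 3 rose, with a median of -0.15, where 10.1% of all genes tested fell and 17.1% rose. THBS1, thrombospondin 1, fell from 9.20 and 8.74 to 5.98 and 6.35, and its 5 probe sets averaged gave -1.86. TIMP3, an inhibitor of metalloproteinases, fell from 11.09 and 10.86 to 8.79 and 9.11, and MATN2, a matrilin, from 6.97 and 6.87 to 5.27 and 4.92. MFAP2, of microfibrils, fell by 0.73 ± 0.14. SPP1, osteopontin, rose from 9.11 and 8.93 to 10.06 and 10.14, and had read 4.65 at 53 h. CCN2 and CCN1, targets of YAP named after their values were seen, fell by 2.13 and 1.40. Without 72 h replicate 1 or 96 h replicate 1, 5 fell and 1 rose, and with the 4 arrays alone 6 rose.

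Actin, adhesion and contractile genes had 6 of 33 higher and 4 lower, near the 17.1% and 10.1% of all genes tested, with a median of 0.09. ACTG2, smooth muscle gamma actin, rose from 4.12 and 4.49 to 8.13 and 7.39. ITGA2, the integrin alpha 2 chain, was at 2.64 and 2.62 and then at 5.61 and 4.76, at least 2.27-fold higher. ITGA2 entered the test only through its 96 h arrays, so its call is a description. LIMA1, an actin-bundling protein, fell from 11.32 and 11.32 to 10.26 and 10.32, and AMOTL2, a junction protein that binds YAP, from 9.80 and 9.62 to 7.50 and 7.22. The count of higher members was 3 without 72 h replicate 2 and 3 without 96 h replicate 1, that of lower ones was 2 in both, and 7 fell with the 4 arrays alone.

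Mesenchymal and bone genes fell in 5 of 20 cases and rose in 1, with a median of -0.34, or -0.14 with dim values raised to log2 4. PDGFRB, a receptor of platelet-derived growth factor, fell from 9.95 and 9.69 to 8.67 and 8.72, MSX1, a homeobox factor, from 8.87 and 9.05 to 7.66 and 7.91, and ZEB1 from 5.72 and 5.61 to 4.50 and 4.35 (-0.50 over all probe sets). PRRX1, a homeobox factor of limb mesenchyme, was at 2.83 and 2.87 and then at 4.00 and 4.59, at least 1.23-fold higher. It entered the test only through its 96 h arrays, and its call was lost with dim values raised to log2 4 (adjusted p = 0.121).

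Genes of TGF-beta and BMP signalling had 2 of 25 higher and 6 lower, against 17.1% and 10.1% of all genes tested, with a median of -0.11. LTBP2, a latent TGF-beta binding protein, rose from 4.35 and 3.78 to 6.85 and 6.89. ID4, a target of BMP, fell from 11.66 and 11.43 to 9.74 and 10.21. SMAD5 and SMAD6, a transducer and an inhibitor of BMP signals, fell by 1.31 ± 0.17 and 0.95 ± 0.16, the second by 0.30 with all probe sets averaged. The count that fell was 3 without 72 h replicate 1, without 72 h replicate 2 and without 96 h replicate 1.

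Neural genes had 8 of 19 higher and 3 lower, against 17.1% and 10.1% of all genes tested, with a median of 0.17. NEFL, the light neurofilament chain, rose from 7.59 and 7.47 to 10.51 and 9.79, and ENO2, the neuronal enolase, from 4.25 and 3.64 to 6.72 and 6.31. SYT1, synaptotagmin 1, fell from 9.42 and 9.34 to 8.80 and 8.48. MAPT, tau, rose by 0.64 ± 0.16, a call lost without 72 h replicate 1 (adjusted p = 0.0783), without 96 h replicate 1 (0.0611) or with all probe sets averaged (0.167). The count of higher members was 2 without 72 h replicate 1, 3 without 72 h replicate 2 and 2 without 96 h replicate 1, with 1 lower in each.

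Of genes used as endothelial markers KDR and FLT1, receptors of vascular endothelial growth factor, fell. KDR read 7.51 and 7.24 at 72 h and 4.64 and 5.76 at 96 h, and FLT1 read 5.73 and 4.47 and then 3.90 and 3.90, at least 2.15-fold lower (adjusted p = 0.00675, or 0.0895 with the 4 arrays alone). EMCN, endomucin, was bright on all 16 arrays and did not pass, at 11.66 and 11.59 and then 10.66 and 11.18. PECAM1, CDH5, TEK, TIE1 and VWF, which define endothelium, were below log2 4 throughout. Of 5 tested Ewing sarcoma line markers 0 rose and 1 fell, with a median of 0.21, and 3 changes were positive and 2 negative. The 1 that fell was IGF1R, a receptor on which Ewing sarcoma lines depend, by 0.71 ± 0.24 (adjusted p = 0.0396). Its call was lost without 72 h replicate 1, 72 h replicate 2 or 96 h replicate 1.

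The other genes with the largest falls belong to no single list. CCL20, a chemokine of T helper and dendritic cells, read 5.21 and 7.13 at 72 h and 2.22 and 2.19 at 96 h, at least 4.50-fold lower. It was below log2 4 at all other times, so it entered the test only through the 72 h arrays. Their SD was 1.36, against 0.01 to 0.15 at the other times, so the shared spread behind its call comes mostly from dim arrays. PLXNC1, a semaphorin receptor, fell from 9.48 and 9.29 to 5.74 and 6.00. GAS2, a growth arrest gene of the cytoskeleton, fell from 8.41 and 8.35 to 4.51 and 5.20. CEBPD, an inflammatory transcription factor, fell from 10.03 and 9.67 to 6.62 and 7.55, or by 1.76 without probe sets marked as shared. EDN1, endothelin 1, fell from 7.93 and 7.74 to 5.41 and 4.09.

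For several of them the 96 h replicates were far apart. NDNF, a secreted neuronal factor, read 8.67 and 8.74 at 72 h and 3.37 and 6.28 at 96 h. SELENOP, a selenium carrier, had means of 8.92 ± 0.21 (SD, n = 2) and 5.73 ± 1.79, and DACH1, a transcription factor, of 7.84 ± 0.24 and 4.98 ± 1.46. In all 3 genes replicate 1 at 96 h is the lower by more than 2 on the log2 scale, and both 96 h arrays are below both 72 h arrays. ASPN, POPDC2, GUCY1A1 and FMO1 were dim on both 96 h arrays and at least 3.57-fold, 2.19-fold, 3.30-fold and 1.98-fold lower. POPDC2 and GUCY1A1 were above log2 4 on the 72 h arrays alone and entered the test only through them. Of the 15 lowest genes 1, ICAM1, belongs to the inflammatory list.

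Among the highest genes outside the cell cycle, ADGRG1, an adhesion G protein-coupled receptor, read 4.59 and 3.80 at 72 h and 7.86 and 7.13 at 96 h. Its other probe set was below log2 4, and the mean of both changed by 1.82. KIAA1549L was at 2.78 and 2.78 and then at 6.81 and 5.03, at least 3.78-fold higher (adjusted p = 0.000619). At 0 h their means were 2.58 and 3.40 and at 53 h 2.55 and 2.77, and 1 of the 4 arrays of KIAA1549L at 0 h was above log2 4, at 4.32.

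**Figure D5:**
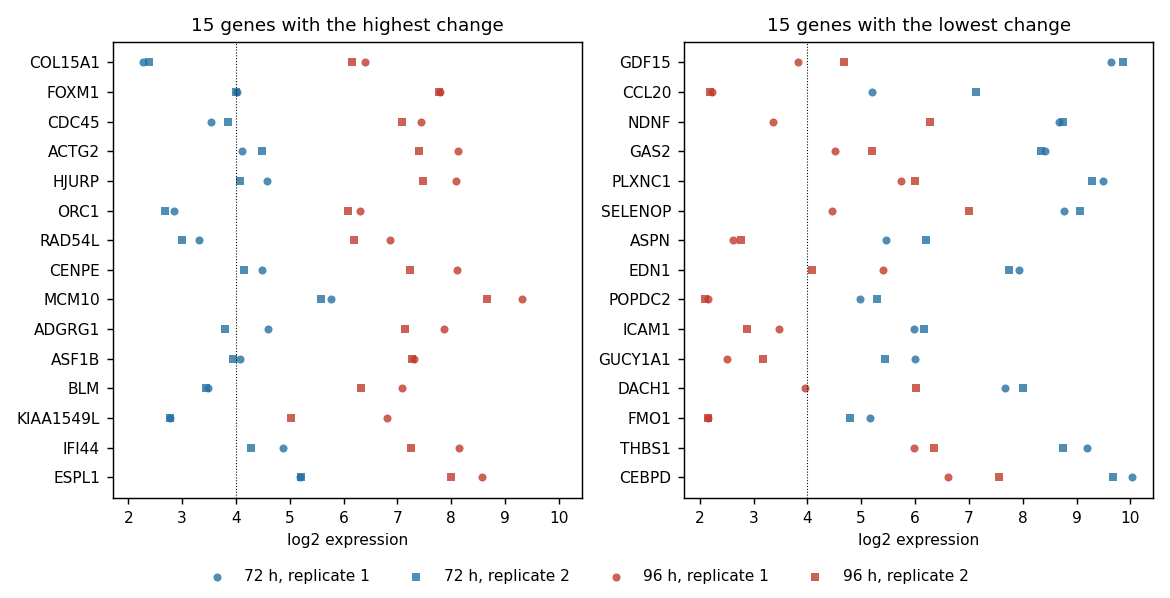
Log2 expression (x axis) of the 15 genes with the highest (left) and the 15 with the lowest (right) change at 96 h against 72 h, with 72 h arrays in blue, 96 h arrays in red, replicate 1 as circles and replicate 2 as squares. A dotted line marks log2 4. The arrays of the groups do not overlap, as the rule required, and the 96 h replicates of NDNF, SELENOP and DACH1 lie far apart.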

How the data were processed

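RNA of A673 clone Asp14 cells was measured on 16 Affymetrix arrays. The values the authors deposited are log2 expression levels of probe sets. The submitters' processing notes name GCRMA, whose version and settings were not given in the sources used here. GCRMA pulls dim probe sets toward a common low value, so changes at low levels are compressed or unstable. For a gene dim at most times, the shared spread then comes largely from dim values that vary little. Its p-value can overstate how repeatable the change was. The deposited log2 values ran from 0.388 to 15.2, and the table held 0 columns of other samples.

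Of 22277 probe sets, 62 control sets were left out, and 19070 had 1 gene symbol, 1043 several and 2164 none. Those with 1 symbol covered 11963 genes, of which 4310 had more than 1 probe set and were represented by the probe set with the highest mean. The 7304 genes at log2 4 or more on at least 2 arrays were tested with limma 3.58.1 (R 4.3.3) on all 16 arrays, with 10 residual degrees of freedom, eBayes with a trend and Benjamini-Hochberg adjustment over all genes tested. A gene passed, and "rose" or "fell", at an adjusted p under 0.05. Genes that reached log2 4 only on the 2 arrays of a single time entered the test through that group, so their calls are a description. Groups were taken from the labels. The procedure was tested on simulated data. Promoters were searched with Python 3.11.15, and figures drawn with matplotlib 3.10.9.

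The members and gene lists were chosen with earlier results of these data known. Named genes are the 15 highest and 15 lowest passing genes without overlap, the fusion's partners FLI1 and EWSR1, the tested E2F and RB members, and up to 4 passing members with the smallest adjusted p of each other list. Other genes are said to be chosen after their values were seen. Alternatives covered the arrays fitted, each array left out, the replicate block, filters, probe set choice, scaling, array weights and dim values. The number of arrays limits the precision.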

Additional observations from a re-analysis of the deposited data

How the results depend on the processing

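With 1 array left out at a time, 1234 to 1857 genes changed at 96 h against 72 h, with 386 to 717 lower, and 578 to 1289 in the step from 53 h to 72 h (213 to 427 higher, 365 to 862 lower). The latter were 621 (236 and 385) without 72 h replicate 2. Such fits leave 1 array in a group, which is assumed to vary like the other groups. Without probe sets marked _x_at or _s_at, where 4429 genes were tested, 1123 genes changed in the last step (688 higher, 435 lower), 718 from 53 h to 72 h (259 and 459) and 1642 from 53 h to 96 h (773 and 869). With arrays centred, 528 genes fell from 53 h to 72 h. A replicate block gave different counts: 1322 genes rose and 855 fell in the last step. The labels state no pairing, and same-numbered arrays deviated with a correlation of 0.158 over the 2 pairs. Over the genes and alternatives, 2427 values kept direction and call, 79 lost the call, 7 gained it and 5 changed sign: E2F5 to -0.17 without 72 h replicate 1 (-0.17 to 0.60 over the omissions), LIN37 to 0.023 without 72 h replicate 1 (-0.23 to 0.023), RB1 to -0.14 without 72 h replicate 2 and -0.17 without 96 h replicate 1 (up to 0.33), and MACROH2A1 to -0.14 without the marked probe sets. The causes were not tested. Of the list medians, 504 moved by less than the replicates differ. With 1 array left out they ran from 0.30 to 0.50 for the E2F and RB family, 1.55 to 1.91 for replication, 0.95 to 1.20 for deoxynucleotides, 1.42 to 1.71 for DNA repair, 0.70 to 0.80 for chromatin copying, 1.92 to 2.23 for mitotic kinases, -0.22 to 0.050 for other matrix, -0.020 to 0.098 for actin, -0.42 to -0.092 for interferon, -1.81 to -1.39 for inflammatory, 0.090 to 0.30 for unfolded protein response, 0.077 to 0.39 for ribosome biogenesis and -0.41 to -0.014 for TGF-beta genes. Without the marked probe sets the medians were 1.11 for the E2F and RB family, 1.36 for replication, 1.58 for deoxynucleotides, 1.77 for DNA repair, 0.51 for chromatin copying, 0.55 for condensin and cohesin, 0.86 for G1, -0.58 for mesenchymal, -0.44 for interferon, 0.37 for splicing, -0.36 for p53 and -0.27 for Ewing sarcoma line markers. With all probe sets averaged they were 0.84 for chromatin copying, 0.38 for condensin and cohesin, 0.24 for splicing and -0.31 for p53. With no filter they were 0.72 for chromatin copying, -0.0029 for G1, -0.28 for histone, -0.059 for mesenchymal, -0.054 for interferon, -1.01 for inflammatory and -0.039 for p53 genes. A filter on the 4 arrays gave 0.83 for chromatin copying and a filter at log2 6 gave -0.10 for p53 genes. Centring gave 0.68 for chromatin copying, 0.018 for actin and 0.13 for unfolded protein response genes. A second quantile normalization gave 0.70 for chromatin copying, 0.020 for actin and -0.29 for p53 genes. With dim values raised to log2 4 the medians were -0.14 for mesenchymal and -1.19 for inflammatory genes.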

Other observations

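A set of 19 genes was below log2 4 on the 14 other arrays and above it on both 96 h arrays. They were selected on these values, which are given as a description. MMP3, the metalloproteinase stromelysin 1, read 2.42 and 2.39 at 72 h and 4.86 and 5.41 at 96 h, and PRG4, the joint lubricant lubricin, read 3.81 and 3.25 and then 6.65 and 5.42. The set also held COL15A1, COL8A1, ITGA2 and the laminin chain LAMB3, the secreted factors VEGFC and INHBA, the receptor chain IL6R and the potassium channels KCNMA1 and KCNN4.

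Another 20 genes were above log2 4 on both 72 h arrays and below it on the other 14. Besides CCL20, CXCL1, CXCL2, ICAM1 and RELB they held TNFRSF9, a receptor of the tumour necrosis factor family, at 6.50 and 6.23 at 72 h and 3.66 and 3.99 at 96 h. PCK1, the enzyme of gluconeogenesis, read 5.48 and 6.03 and then 2.96 and 3.21. WNT6, a Wnt ligand, MEOX1, a homeobox factor, and RARRES1, a retinoid target, were among the rest.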
